A study of Mus musculus with 103 samples.

Results

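Lysosome genes encode the membrane proteins, acid hydrolases, lipid transfer proteins and proton pump subunits of the organelle in which cells break down internalized and worn-out material. The set described here holds 40 named genes of the 51456 gene symbols in the deposited tables, picked by symbol from a fixed list. All 40 were among the 14637 symbols that reached a value of 1 in 5 or more libraries and were tested. They fall into 6 roles, namely membrane and trafficking, proteases, glycan degradation, lipid handling, the proton pump and regulators. RNA-seq was carried out on aortic arches from female C57BL/6 mice without ovaries, fed a diet with 42% of calories from fat, with the adventitial fat swabbed off. The mice lacked apolipoprotein E (ApoE-KO) or were wild type (WT), and were injected under the skin once a week with Scl-Ab at 10 mg/kg or with vehicle buffer. Scl-Ab is r13C7, a sclerostin antibody engineered from romosozumab with rat frameworks and constant regions.

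Tissue was taken after 3, 8 and 16 weeks of dosing, when the mice were 12 to 13, 17 to 18 and 25 to 26 weeks old. At week 3 there were 9 ApoE-KO Scl-Ab, 8 ApoE-KO vehicle, 6 WT Scl-Ab and 8 WT vehicle libraries. At week 8 there were 10 ApoE-KO Scl-Ab, 10 ApoE-KO vehicle, 9 WT Scl-Ab and 5 WT vehicle libraries, and at week 16 there were 10, 10, 8 and 10 libraries in the same order. All groups, the WT vehicle mice included, carried the ovariectomy and the high-fat diet, so no group shows the aorta of intact or chow-fed mice. The knockout was present in every cell of the animal. The labels do not assign the sequencing batches to libraries, so week, age and batch cannot be told apart, and differences across weeks are given as differences of within-week contrasts.

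Values were FPKM-type abundances (labelled FPKQ, a unit the sources do not define) that summed to between 494635.2 and 826445.4 per library, and no read counts were used, so sequencing depth is unknown. Each library held between 12405 and 13338 genes at a value of 1 or more. Apoe, the deleted gene, reached at most 18.24 in ApoE-KO libraries and at least 219.86 in WT libraries, so every library matched its genotype label. The libraries least like their own group were ApoE-KO Scl-Ab replicate 9 and WT vehicle replicate 4 of week 3 and ApoE-KO Scl-Ab replicate 7 of week 16, with median correlations to their group of 0.9015, 0.9157 and 0.9377 across genes, against a median of 0.98 over all libraries. Smooth muscle genes, which mark the aortic wall, were abundant in all groups, and the summed level of 9 of them was 5260.0 to 12747 in ApoE-KO Scl-Ab and 8569 to 14013 in ApoE-KO vehicle arches at week 16, against 11671 to 18884 in WT Scl-Ab and 13107 to 18236 in WT vehicle arches. In such bulk tissue, fewer cells of a type and less RNA per cell cannot be told apart.

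Lysosomes receive material from endocytosis, phagocytosis and autophagy. A vacuolar proton pump acidifies the lumen, and cathepsins, glycosidases, lipases and sphingolipid hydrolases with their activator proteins work at that acid pH. In atherosclerotic arteries, macrophages that take up lipoproteins hydrolyse the cholesteryl esters in lysosomes. The transcription factor TFEB and its relatives are known to bind a palindrome with the core TCACGTGA in the promoters of many lysosome genes, known as the CLEAR element.

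Promoters are shown because many of the 40 genes differed together. RefSeq promoters (GRCm38.p6, 250 bases before to 50 bases after each start) were found for 33 of the 40 genes, and 4 motifs were searched on both strands. The E-box CACGTG was found in 11 of the 33 (33.3%), against 8.09% of the 27025 genes in the table. The longer TCACGTGA, which contains CACGTG, was found in 5 of the 33 (15.2%), against 1.12% of all genes, in the promoters of Ctsd, Ctsa, Gla, Mcoln1 and Atp6v1a. The same 8 bases with a G before and a C after them were in 0 of the 33, against 0.37% of all genes. CATGTG was in 10 of the 33 (30.3%), against 15.9% of all genes. In the promoters of 54 lysosome genes outside the 40, the 4 shares were 27.8%, 14.8%, 3.70% and 14.8% in the same order. The shares of CACGTG and TCACGTGA are thus not particular to the 40. The motif matches are descriptions of these windows and not evidence of binding. Stretches of 48 bases are printed from 4 of these promoters, 5′ to 3′ on the gene's strand, with TCACGTGA in capitals. They show the same core in genes that differed between genotypes in all 6 comparisons (Ctsd and Gla), in 5 (Mcoln1) and in 0 (Atp6v1a). The first core base lies at position -99 from the start in Ctsd, at -228 and -195 in Gla, at -46 in Mcoln1 and at -132 in Atp6v1a.
Ctsd, chr7:142387899-142387946, minus strand: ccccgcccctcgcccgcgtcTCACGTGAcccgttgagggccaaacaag
Gla, upstream copy, chrX:134601206-134601253, minus strand: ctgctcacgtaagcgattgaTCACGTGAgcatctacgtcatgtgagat
Gla, downstream copy, chrX:134601173-134601220, minus strand: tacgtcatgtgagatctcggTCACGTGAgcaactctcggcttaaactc
Mcoln1, chr8:3500453-3500500, plus strand: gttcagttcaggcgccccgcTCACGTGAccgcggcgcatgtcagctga
Atp6v1a, chr16:44139364-44139411, minus strand: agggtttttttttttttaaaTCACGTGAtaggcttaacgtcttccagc

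Levels of the 40 genes spanned a wide range. The values were taken as per length, which is an assumption because the unit is not defined. The highest median over all libraries was 873 for Psap, the precursor of the saposins that activate sphingolipid hydrolases. Next were 751 for Ctsd, an aspartic protease, and 482 for Lamp1, a main glycoprotein of the lysosomal membrane. The lowest medians were 4.98 for Gla, the alpha-galactosidase A, and 7.59 for Galns, a sulfatase of keratan sulfate breakdown. The summed level of the 40 genes was 7963 to 11829 in ApoE-KO Scl-Ab and 6810.0 to 12955 in ApoE-KO vehicle arches at week 16, against 4019.7 to 4794 in WT Scl-Ab and 3888 to 4485 in WT vehicle arches. At week 16 the lowest ApoE-KO library thus stood above the highest WT library for the sum. The mean log2(value + 1) of the 40 genes at week 3 was 6.30 ± 0.28 in ApoE-KO Scl-Ab, 6.09 ± 0.35 in ApoE-KO vehicle, 5.56 ± 0.09 in WT Scl-Ab, 5.58 ± 0.13 in WT vehicle arches (mean ± SD). At week 8 it was 6.54 ± 0.15 in ApoE-KO Scl-Ab, 6.62 ± 0.18 in ApoE-KO vehicle, 5.64 ± 0.05 in WT Scl-Ab, 5.64 ± 0.09 in WT vehicle arches, and at week 16 it was 6.71 ± 0.14 in ApoE-KO Scl-Ab, 6.62 ± 0.21 in ApoE-KO vehicle, 5.67 ± 0.06 in WT Scl-Ab, 5.65 ± 0.06 in WT vehicle arches. The spread within the ApoE-KO groups was widest at week 3, where the lowest ApoE-KO vehicle library lay within the range of WT vehicle libraries.

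Knockout was first compared with wild type under vehicle. The test was limma on log2(value + 1), fitted across all 14637 genes with 1 mean per group, and a gene was called where its two-sided p, adjusted over all genes by the Benjamini-Hochberg method, lay under 0.05. At week 3, 22 of the 40 lysosome genes were higher in ApoE-KO arches and 0 were lower, against 11.6% of all genes higher and 13.4% lower. At week 8, 31 were higher and 0 lower, against 10.2% of all genes higher and 5.32% lower. At week 16, 32 were higher and 0 lower, against 15.5% higher and 21.1% lower. The median log2 difference over the 40 genes was 0.22, 0.68 and 0.68 at weeks 3, 8 and 16, beside -0.02, -0.03 and -0.06 over all genes tested. Every ApoE-KO library exceeded every WT library for 6 of the 40 at week 3 (0.956% of all genes), for 28 at week 8 (4.55%) and for 27 at week 16 (6.48%).

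Under Scl-Ab, 31 of the 40 were higher in ApoE-KO than in WT arches at week 3, 32 at week 8 and 32 at week 16, and 0 were lower at each week. The shares of all genes called higher were 13.3%, 14.3% and 17.6%, those called lower were 12.4%, 17.9% and 26.3%, and the median log2 differences of the 40 were 0.60, 0.59 and 0.80. Every ApoE-KO library exceeded every WT library for 9 genes at week 3 (3.11% of all genes), 26 at week 8 (5.34%) and 26 at week 16 (7.34%). Of the 40 genes, 19 were called higher in all 6 genotype comparisons, 12 in 5, 1 in 4, 2 in 1 and 6 in 0. The matching shares of all genes were not counted. No more than 10.2% of all genes, the share at week 8 under vehicle, can have been called higher in all 6. Without the 3 libraries least like their group, the week 3 counts were 23 under vehicle (20 higher and 3 lower) and 33 under Scl-Ab. With clock gene components in the fit the week 3 count under vehicle was 11.

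**Figure D1:**
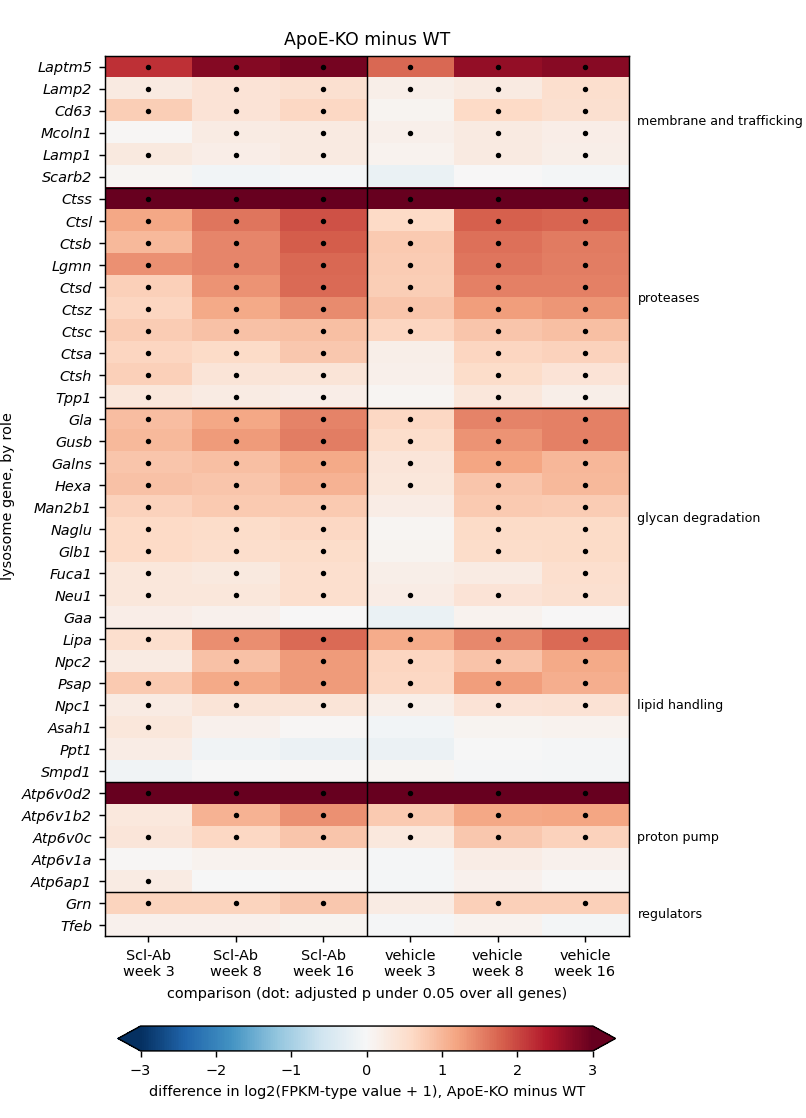
Differences in log2(value + 1) between ApoE-KO and WT arches (colour, which saturates at 3) for the 40 lysosome genes in rows, grouped by role, under Scl-Ab and under vehicle at weeks 3, 8 and 16 in columns, with a dot where the adjusted p is under 0.05. Atp6v0d2, Ctss and Laptm5 stand out in all 6 columns, and Gaa, Smpd1, Ppt1, Scarb2, Atp6v1a and Tfeb carry no dot.

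The proton pump held the largest difference of the 40 and also some of the smallest. Atp6v0d2, the d2 isoform of the membrane sector of the pump and a gene known from osteoclasts and macrophages (chr4:19876838-19922566, GRCm38), was 28.2 to 94.3 with a median of 43.6 in ApoE-KO vehicle and 0.0226 to 0.367 with a median of 0.141 in WT vehicle arches at week 16. At week 8 it ranged from 28.1 to 69.97 in ApoE-KO vehicle arches, against 0.266, 0.232, 0.134, 0.117 and a listed 0 in the 5 WT vehicle libraries. At week 3 it was 3.25 to 81.02 with a median of 16.1 in ApoE-KO vehicle and 0.0210 to 0.269 with a median of 0.0993 in WT vehicle arches. The groups did not overlap at any week, and the WT values lay under the pseudocount of 1, so the log2 scale understates the ratio. The log2 difference was 3.94 ± 0.25 (SE) at week 3, 5.51 ± 0.27 at week 8 and 5.36 ± 0.22 at week 16 (adjusted p = 4.14e-25, 6.88e-33 and 9.78e-39, limma). Under Scl-Ab at week 16 it was 19.1 to 75.7 with a median of 59.1 in ApoE-KO Scl-Ab and 0.0506 to 0.362 with a median of 0.209 in WT Scl-Ab arches, again with no overlap. Of 5 osteoclast marker genes examined, Nfatc1 alone, which other cells also express, passed the filter, and the summed level of the list was 8.59 to 14.7 in ApoE-KO vehicle and 7.55 to 11.03 in WT vehicle arches at week 16. Nfatc1 was higher by 0.28 ± 0.07 at week 16 under vehicle (adjusted p = 0.00142, limma) and by 0.24, 0.34 and 0.36 at weeks 3, 8 and 16 under Scl-Ab. The part of such cells in the difference was not tested.

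The other pump subunits differed less. Atp6v1b2, the B2 isoform of the catalytic sector, was 36.3 to 74.2 with a median of 48.8 in ApoE-KO vehicle and 18.4 to 27.4 with a median of 20.7 in WT vehicle arches at week 16, with no overlap. It was higher by 0.80 ± 0.13 (SE) at week 3, 1.15 ± 0.14 at week 8 and 1.19 ± 0.12 at week 16 under vehicle (adjusted p = 1.84e-06, 1.75e-10 and 3.06e-15, limma). Atp6v0c, the proteolipid of the membrane ring, was higher by 0.32, 0.82 and 0.68. Atp6v1a, the A subunit of the same catalytic sector as Atp6v1b2, was 37.3 to 58.8 in ApoE-KO vehicle and 33.6 to 46.7 in WT vehicle arches at week 16, with a difference of 0.14 ± 0.07 that did not pass (adjusted p = 0.138, limma). Atp6ap1, an accessory protein of the pump, differed by 0.03 ± 0.08 at week 16 under vehicle (adjusted p = 0.824, limma), and of the 6 genotype comparisons it was called at week 3 under Scl-Ab alone, by 0.24 ± 0.09 (adjusted p = 0.0443). Of the 13 other pump genes tested, 9 were higher and 0 lower at week 16 under vehicle, among them Tcirg1, the a3 isoform of the membrane sector, by 1.39 ± 0.12. Atp6v0d1, the widely expressed d1 counterpart of Atp6v0d2, was higher by 0.38 ± 0.07 at week 8 and 0.17 ± 0.06 at week 16, and its difference of 0.12 ± 0.06 at week 3 did not pass (adjusted p = 1.08e-05, 0.0142 and 0.14, limma).

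**Figure D2:**
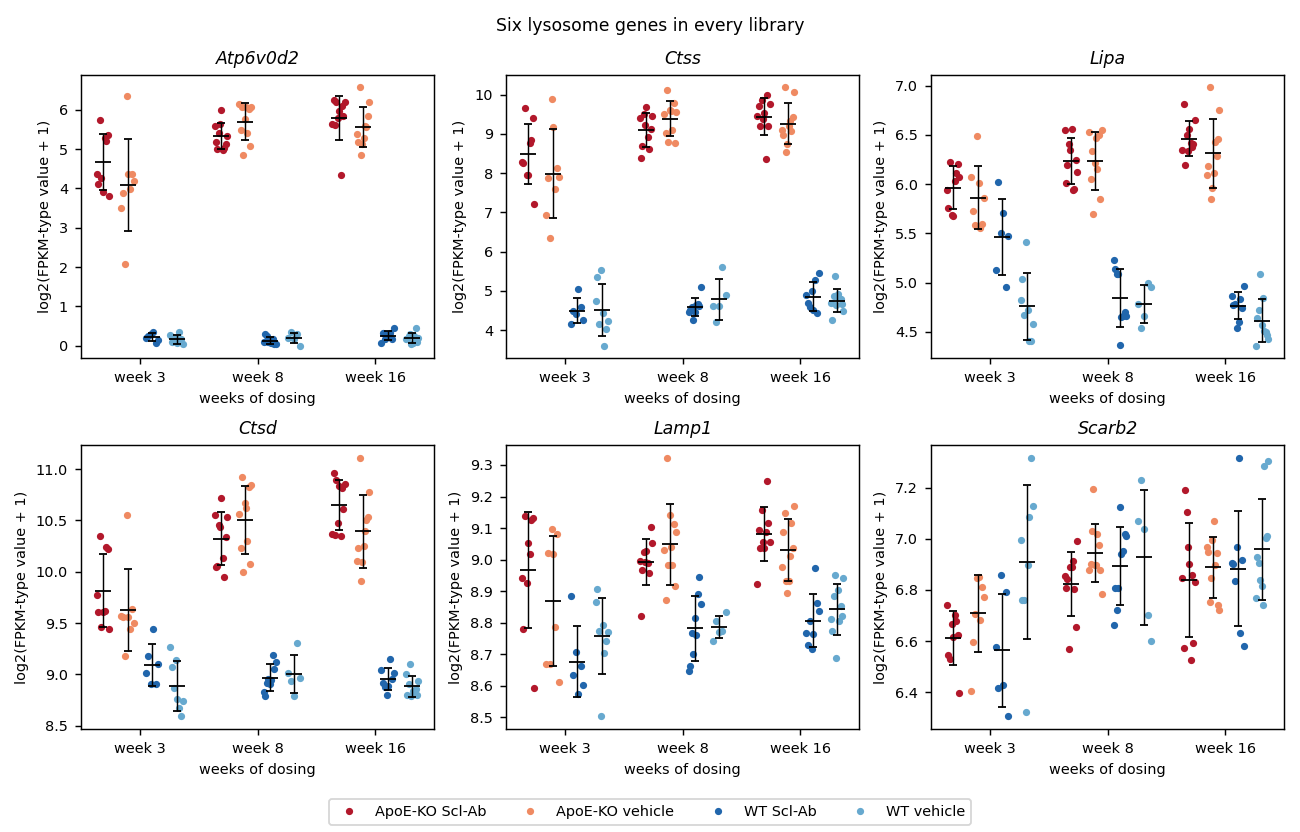
Values of 6 lysosome genes as log2(value + 1) in every library (points), by week of dosing, with the mean and 1 SD of each group (black). ApoE-KO groups lie left of WT groups and Scl-Ab left of vehicle. Atp6v0d2 and Ctss separate the genotypes at every week, and the groups of Scarb2 overlap.

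All 10 proteases were called higher in ApoE-KO arches at weeks 8 and 16 under vehicle, and 7 at week 3. Ctss, cathepsin S, an elastin-cleaving cysteine protease that also trims the MHC class II invariant chain (chr3:95526786-95556405, GRCm38), was 371 to 1163 with a median of 564 in ApoE-KO vehicle and 18.1 to 40.8 with a median of 25.7 in WT vehicle arches at week 16. At week 3 it was 80.4 to 940.1 with a median of 236 in ApoE-KO vehicle and 11.2 to 45.3 with a median of 19.3 in WT vehicle arches. The groups did not overlap at any week. The difference was 3.47 ± 0.28 at week 3, 4.60 ± 0.30 at week 8 and 4.51 ± 0.25 at week 16 (adjusted p = 1.45e-18, 5.45e-24 and 9.52e-30, limma).

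The next protease differences at week 16 under vehicle lay between 1.33 and 1.75. Ctsl, cathepsin L, was 468 to 1362 with a median of 662 in ApoE-KO vehicle and 196 to 247 with a median of 217 in WT vehicle arches, a difference of 1.75 ± 0.16. Ctsb, cathepsin B, was higher by 1.55 ± 0.11, and Lgmn, the asparaginyl endopeptidase that processes cathepsins, by 1.53 ± 0.13. Ctsd was 964 to 2208 with a median of 1284 in ApoE-KO vehicle and 441 to 546 with a median of 459.6 in WT vehicle arches, a difference of 1.51 ± 0.12. Ctsz, a carboxypeptidase, was higher by 1.33 ± 0.11. The adjusted p of these 5 genes lay between 1.14e-21 and 2.1e-16 (limma), and every ApoE-KO vehicle library exceeded every WT vehicle library for each. Ctsc, which activates granule proteases, was higher by 0.90 ± 0.14, and Ctsa, the protective protein of neuraminidase, by 0.68 ± 0.10. The smallest differences of the role were 0.40 ± 0.13 for Ctsh, an aminopeptidase, and 0.17 ± 0.06 for Tpp1, the tripeptidyl peptidase mutated in a form of Batten disease, and their groups overlapped. Ctsk, cathepsin K, a collagenase of osteoclasts that is not among the 40, was higher by 1.51 ± 0.16 at week 16 (adjusted p = 3.61e-14, limma), and its difference of 0.25 ± 0.17 at week 3 did not pass (adjusted p = 0.286).

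Of 10 glycan degradation genes, 5 were called higher at week 3, 8 at week 8 and 9 at week 16 under vehicle. Gla was 8.28 to 17.4 with a median of 10.2 in ApoE-KO vehicle and 2.79 to 3.75 with a median of 3.12 in WT vehicle arches at week 16, a difference of 1.52 ± 0.12. Gusb, the beta-glucuronidase, was 68.3 to 145 with a median of 96.9 in ApoE-KO vehicle and 30.3 to 36.3 with a median of 34.1 in WT vehicle arches, a difference of 1.50 ± 0.12. The groups did not overlap for either gene. Galns and Hexa, the alpha chain of beta-hexosaminidase, were higher by 0.99 ± 0.12 and 0.97 ± 0.11. Man2b1, an alpha-mannosidase, was higher by 0.76, Naglu, which acts on heparan sulfate, by 0.58, Glb1, a beta-galactosidase, by 0.58, Fuca1, a fucosidase, by 0.49 and Neu1, a sialidase, by 0.48. Gaa, the acid alpha-glucosidase that degrades glycogen, was 45.9 to 56.5 in ApoE-KO vehicle and 44.4 to 64.3 in WT vehicle arches at week 16. Its difference had a size under 0.01 with an SE of 0.07 (adjusted p = 0.98, limma), and it was called in 0 of the 6 genotype comparisons.

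The 7 lipid handling genes divided into 4 that were higher in ApoE-KO arches at every week under vehicle and 3 that did not pass at any. Lipa, the acid lipase that hydrolyses cholesteryl esters and triglycerides (chr19:34492316-34527474, GRCm38), was 56.6 to 125 with a median of 74.3 in ApoE-KO vehicle and 19.6 to 32.9 with a median of 22.3 in WT vehicle arches at week 16. At week 3 it was 45.99 to 88.9 with a median of 54.3 in ApoE-KO vehicle and 20.2 to 41.7 with a median of 25.02 in WT vehicle arches, and the groups did not overlap at either week. Under Scl-Ab at week 3, Lipa was 50.1 to 73.8 with a median of 64.3 in ApoE-KO Scl-Ab and 30.01 to 64.1 with a median of 43.9 in WT Scl-Ab arches, the groups overlapped and the difference was 0.50 ± 0.14 (adjusted p = 0.00636, limma). Under vehicle the difference was 1.10 ± 0.13, 1.45 ± 0.15 and 1.70 ± 0.12 at weeks 3, 8 and 16 (adjusted p = 3.98e-10, 6.78e-14 and 1.62e-22, limma). Npc2, which takes cholesterol from internal membranes, was higher by 1.14 ± 0.12 at week 16, Psap by 1.09 ± 0.10, and Npc1, which passes cholesterol out of the lysosome, by 0.44 ± 0.06. The other hydrolases of the role had small differences at week 16. Asah1, acid ceramidase, differed by 0.10 ± 0.08, Smpd1, acid sphingomyelinase, by -0.05 ± 0.05 and Ppt1, a palmitoyl-protein thioesterase, by -0.04 ± 0.09 (adjusted p = 0.386, 0.497 and 0.803, limma). Asah1 was called higher in 1 genotype comparison, under Scl-Ab at week 3, by 0.33. A p that misses the threshold does not show that the levels were equal.

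Among membrane and trafficking genes, Laptm5, a lysosomal membrane protein of blood cells (chr4:130912890-130936148, GRCm38), was 71.9 to 189 with a median of 120.03 in ApoE-KO vehicle and 12.6 to 26.5 with a median of 16.8 in WT vehicle arches at week 16. The groups did not overlap at any week, and the difference was 1.73 ± 0.22, 2.64 ± 0.24 and 2.73 ± 0.20 at weeks 3, 8 and 16 (adjusted p = 1.67e-09, 4.6e-16 and 3.87e-22, limma). Its relatives Laptm4a and Laptm4b, which are not among the 40, were lower at week 16, with differences of -0.21 ± 0.06 and -0.42 ± 0.07. Lamp2, a membrane glycoprotein with a part in chaperone-mediated autophagy, was higher by 0.50 ± 0.06, and Cd63, a tetraspanin of late endosomes, by 0.49 ± 0.13. Lamp1 was 475 to 575 in ApoE-KO vehicle and 411 to 494 in WT vehicle arches, a difference of 0.19 ± 0.06. Mcoln1, the calcium channel of the lysosomal membrane, was higher by 0.20 ± 0.05. Scarb2, the receptor that carries glucocerebrosidase to lysosomes, was 105 to 133 in ApoE-KO vehicle and 105.9 to 157 in WT vehicle arches, and its difference of -0.07 ± 0.08 did not pass (adjusted p = 0.552, limma).

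The 2 regulators differed from each other in their values. Grn, the precursor of the granulins, was 165 to 269 with a median of 208 in ApoE-KO vehicle and 111.1 to 148 with a median of 128 in WT vehicle arches at week 16, with no overlap and a difference of 0.72 ± 0.10 (adjusted p = 1.09e-08, limma). Tfeb was 10.6 to 14.5 with a median of 11.9 in ApoE-KO vehicle and 10.6 to 16.3 with a median of 12.4 in WT vehicle arches, and its differences in the 6 genotype comparisons lay between -0.07 and 0.14, all short of the threshold. Of the related factors outside the 40, Tfec was higher by 1.47 ± 0.15 and Tfe3 by 0.22 ± 0.05 at week 16 (adjusted p = 7.35e-15 and 0.000733, limma), while Mitf differed by 0.03 ± 0.09 (adjusted p = 0.836).

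Another 69 lysosome genes were examined beside the 40, and 67 of them passed the filter. Under vehicle, the calls were 25 higher and 2 lower at week 3, 39 higher and 0 lower at week 8 and 43 higher and 5 lower at week 16. They stood against 11.6%, 10.2% and 15.5% of all genes higher and 13.4%, 5.32% and 21.1% lower. The median log2 difference was 0.13, 0.26 and 0.22. Gpnmb, a glycoprotein of lysosomes in macrophages, was higher by 5.16 ± 0.24 at week 16, Cd68, a macrophage lysosomal glycoprotein, by 3.82 ± 0.21, and Acp5, the tartrate-resistant acid phosphatase, by 2.79 ± 0.26. The genes called lower at week 16 were Laptm4a, Laptm4b, Hyal1, Ids and Sort1.

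The knockout difference under vehicle was larger at the later weeks for some of the genes. The week 8 difference was called larger than the week 3 difference for 6 of the 40 genes and smaller for 0. All genes stood at 0.253% called larger and 0.0205% called smaller. The genes were Atp6v0d2 (by 1.57 ± 0.36), Ctsl (1.21 ± 0.27), Gla (0.86 ± 0.20), Ctsb (0.85 ± 0.19), Gusb (0.82 ± 0.21) and Galns (0.82 ± 0.20). The week 16 difference was called larger than the week 3 difference for 16 genes and smaller for 0, against 3.29% of all genes larger and 0.922% smaller. Among them were Atp6v0d2 (1.43 ± 0.33), Ctsl (1.17 ± 0.24), Gusb (0.98 ± 0.19) and Gla (0.90 ± 0.18). Between weeks 16 and 8, 0 of the 40 were called by limma, against 0.0137% of all genes. An unadjusted p under 0.05 was found for 1 of the 40 and for 943 of the 14637 genes tested. These contrasts share their libraries with the comparisons above. The count for weeks 8 and 3 was 0 with the replicate number as a block, 0 with scores of fat, muscle and thymus lists in the fit, 3 with a pseudocount of 0.1 and 26 with libraries weighted by their fit. It was 19 without the 3 libraries least like their group, and 10 without WT vehicle replicate 4 of week 3. It was 2, 0 and 15 without ApoE-KO vehicle replicates 1, 3 and 4 of week 3, and 0 and 2 without WT vehicle replicates 3 and 5 of week 8, each left out alone. The count for weeks 16 and 3 was 4 with the macrophage score in the fit and 33 with weighted libraries. It was 8 without either ApoE-KO vehicle replicate 1 or 3 of week 3 and 10 without ApoE-KO vehicle replicate 3 of week 16.

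Macrophage genes moved with the lysosome genes. Of 15 macrophage markers, none among the 40, all passed the filter, and under vehicle the calls in ApoE-KO arches were 13 higher and 1 lower at week 3, 14 higher and 0 lower at week 8 and 14 higher and 0 lower at week 16. Mertk was the gene lower at week 3. Their summed level at week 16 was 1872 to 5612 in ApoE-KO vehicle and 404 to 855 in WT vehicle arches, and 3098 to 4956 in ApoE-KO Scl-Ab and 426 to 857 in WT Scl-Ab arches. The smooth muscle list moved the other way, with 8 of 9 genes lower at week 16 under vehicle. Fibroblast genes moved in part with the lysosome genes. Of 6 fibroblast markers, 0, 2 and 3 were higher at weeks 3, 8 and 16 under vehicle, 6, 2 and 3 under Scl-Ab, and 0 were lower. Their summed level was 2214 to 3462 in ApoE-KO vehicle and 1626 to 2046 in WT vehicle arches at week 16, with no overlap, and 2379 to 3467 in ApoE-KO Scl-Ab and 1705 to 2692 in WT Scl-Ab arches, with overlap. The part of fibroblast content in the differences was not tested. Within groups, the slope of each gene on the macrophage score (the mean log2(value + 1) of the 15 markers) was positive for 34 of the 40 and negative for 0, against 17.0% and 16.9% of all genes. The median slope was 0.39 over the 40 and -0.02 over all genes. The steepest were Ctss (1.33 ± 0.06 log2 units per unit of score, SE), Laptm5 (1.09 ± 0.04) and Atp6v0d2 (0.84 ± 0.10). Ppt1, Mcoln1, Atp6v1a, Tfeb, Smpd1 and Scarb2 did not pass.

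**Figure D3:**
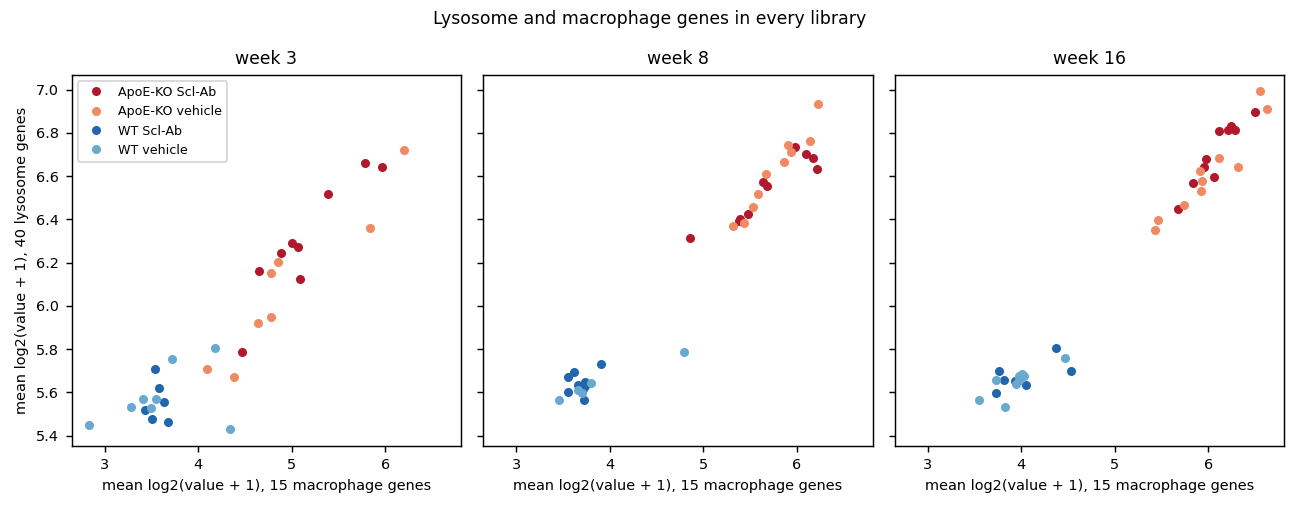
The mean log2(value + 1) of the 40 lysosome genes (vertical axis) against that of the 15 macrophage markers (horizontal axis) in every library (points), with 1 panel per week. At week 16 the macrophage score is 5.43 or more in ApoE-KO and 4.53 or less in WT libraries, and the lysosome mean is 6.35 or more in ApoE-KO and 5.80 or less in WT libraries.

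With the macrophage score in the fit, fewer genotype differences were called. Under vehicle, 4 of the 40 were higher and 2 lower at week 3, 8 and 0 at week 8 and 7 and 0 at week 16, and under Scl-Ab 3, 5 and 9 were higher and 0 lower. In the same fit 1.97%, 0.963% and 1.18% of all genes were higher and 1.97%, 0.956% and 0.649% lower under vehicle. Under Scl-Ab, 0.376%, 0.765% and 1.48% were higher and 0.137%, 0.806% and 0.929% lower. The median log2 difference of the 40 at week 16 was 0.04 under vehicle with the score, against 0.68 without it. Atp6v0d2, Ctss and Laptm5 were called higher with the score in all 6 comparisons, at week 16 under vehicle by 3.65, 1.79 and 0.50, and Lipa in 5, with a value of 0.83 there. Ctsb, Ctsd and Gla were called as well at week 16 under vehicle, by 0.50, 0.43 and 0.56. The genes lower at week 3 were Hexa (-0.34) and Gaa (-0.34). The score overlapped between genotypes at week 3 under vehicle, being 4.10 or more in ApoE-KO and 4.34 or less in WT libraries. It did not overlap at week 3 under Scl-Ab or at weeks 8 and 16 under either treatment. The fit thus rests on the slope within groups, and the part of macrophage content in the differences was not tested beyond it.

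**Figure D4:**
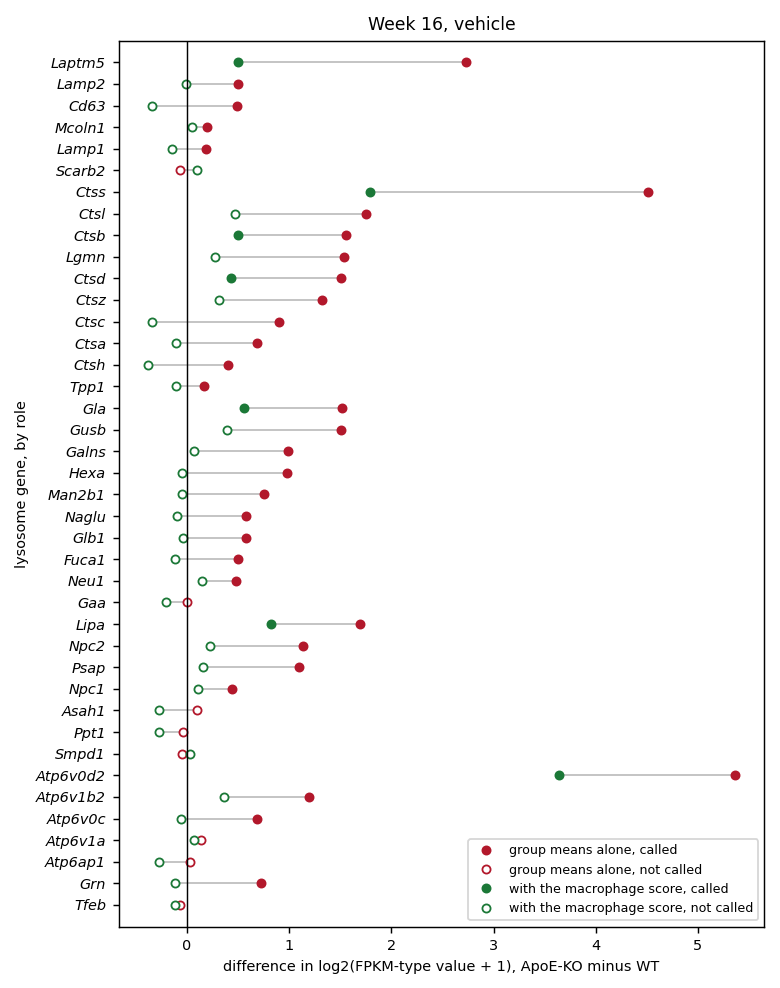
Differences in log2(value + 1) between ApoE-KO and WT vehicle arches at week 16 for the 40 lysosome genes (rows, by role), from the group means alone (red) and with the macrophage score in the fit (green), filled where called. Atp6v0d2 goes to 3.65 with the score, against 5.36 without it, and 7 genes stay filled in green.

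The Scl-Ab comparisons asked whether the antibody changed these genes. In ApoE-KO arches, 9 lysosome genes were higher and 0 lower under Scl-Ab at week 3, against 5.51% of all genes higher and 3.63% lower. They were Grn (0.42 ± 0.11), Galns (0.39 ± 0.13), Hexa (0.39 ± 0.12), Ctsa (0.38 ± 0.11), Naglu (0.36 ± 0.12), Tfeb (0.35 ± 0.10), Gaa (0.32 ± 0.08), Neu1 (0.30 ± 0.07) and Mcoln1 (0.22 ± 0.06), with adjusted p between 0.00271 and 0.045 (limma). All 9 overlapped between groups. Neu1 was 15.2 to 19.8 with a median of 18.9 in ApoE-KO Scl-Ab and 12.5 to 16.2 with a median of 14.1 in ApoE-KO vehicle arches. Atp6v0d2 (0.58 ± 0.24) and Ctss (0.50 ± 0.27) had larger differences but did not pass (adjusted p = 0.102 and 0.217, limma). The 15 macrophage markers had a median difference of 0.23, with 0 called. Brown adipocyte genes summed to 173 to 5433 (median 745) in ApoE-KO Scl-Ab and 163 to 7406 (median 2278) in ApoE-KO vehicle arches. In the same order, the median sums were 1111 and 2922 for white adipocyte genes and 2217 and 1880 for fibroblast genes. The part of these tissues in the calls was not tested by itself. The count of 9 was 1 with the week fitted alone, 1 with 2 components of clock gene expression in the fit, 5 with no filter on low values, 28 with libraries weighted by their fit, 18 with the replicate number as a block and 24 without the 3 libraries least like their group. It was 5, 4, 4, 5 and 20 without ApoE-KO Scl-Ab replicates 3, 5, 7, 8 and 9, and 3, 4, 21, 5 and 5 without ApoE-KO vehicle replicates 1, 3, 4, 6 and 8, each left out alone.

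At week 8, Tfeb alone was called in ApoE-KO arches, against 0.704% of all genes higher and 1.11% lower. Tfeb was 13.8 to 18.01 with a median of 15.6 in ApoE-KO Scl-Ab and 7.99 to 16.5 with a median of 12.8 in ApoE-KO vehicle arches, a difference of 0.35 ± 0.09 (adjusted p = 0.0312, limma), and the groups overlapped. The call was lost with the week fitted alone, with clock components or with no filter, and without ApoE-KO Scl-Ab replicate 2, 6, 9 or 10, or ApoE-KO vehicle replicate 1, 6, 7 or 8. At week 16, 0 of the 40 were called in ApoE-KO arches by limma, against 0% of all genes higher and 0.0137% lower. An unadjusted p under 0.05 was found for 6 of the 40 and for 2103 of the 14637 genes tested, which are similar shares.

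In WT arches, 7 lysosome genes were higher and 3 lower under Scl-Ab at week 3, against 13.7% of all genes higher and 13.2% lower. In both directions together, 10 of the 40 and 3937 of the 14637 genes tested were called. These are similar shares, so the calls are not particular to the lysosome genes. Lipa was 30.01 to 64.1 with a median of 43.9 in WT Scl-Ab and 20.2 to 41.7 with a median of 25.02 in WT vehicle arches, a difference of 0.71 ± 0.15 (adjusted p = 0.000367, limma) with overlapping groups. Mcoln1 was 13.7 to 16.3 with a median of 14.7 in WT Scl-Ab and 9.77 to 13.4 with a median of 11.2 in WT vehicle arches, with no overlap, as for 0.335% of all genes, and a difference of 0.34 ± 0.07 (adjusted p = 0.00018, limma). The others higher were Atp6v1b2 (0.42 ± 0.14), Ctsz (0.40 ± 0.14), Npc2 (0.39 ± 0.14), Neu1 (0.19 ± 0.07) and Smpd1 (0.19 ± 0.06). Those lower were Ppt1 (-0.37 ± 0.11), Scarb2 (-0.34 ± 0.10) and Asah1 (-0.33 ± 0.10). Brown adipocyte genes moved with these calls: 5 of 7 were higher, and their summed level was 542 to 7611 in WT Scl-Ab and 130.01 to 4595 in WT vehicle arches. With scores of fat, muscle and thymus lists in the fit, 2 of the 10 stayed called, Lipa (0.56) and Mcoln1 (0.27), and the part of these tissues was not tested otherwise. The count was 3 with the week fitted alone, 0 with clock components and 16 with weighted libraries. It was 4 without WT Scl-Ab replicate 2 or 4 and 6 without WT vehicle replicate 7. At weeks 8 and 16, 0 of the 40 were called in WT arches by limma. All genes stood at 0% higher and 0% lower at week 8 and at 0% and 0.00683% at week 16. An unadjusted p under 0.05 was found for 4 and 0 of the 40 at weeks 8 and 16, and for 1497 and 797 of the 14637 genes tested.

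**Figure D5:**
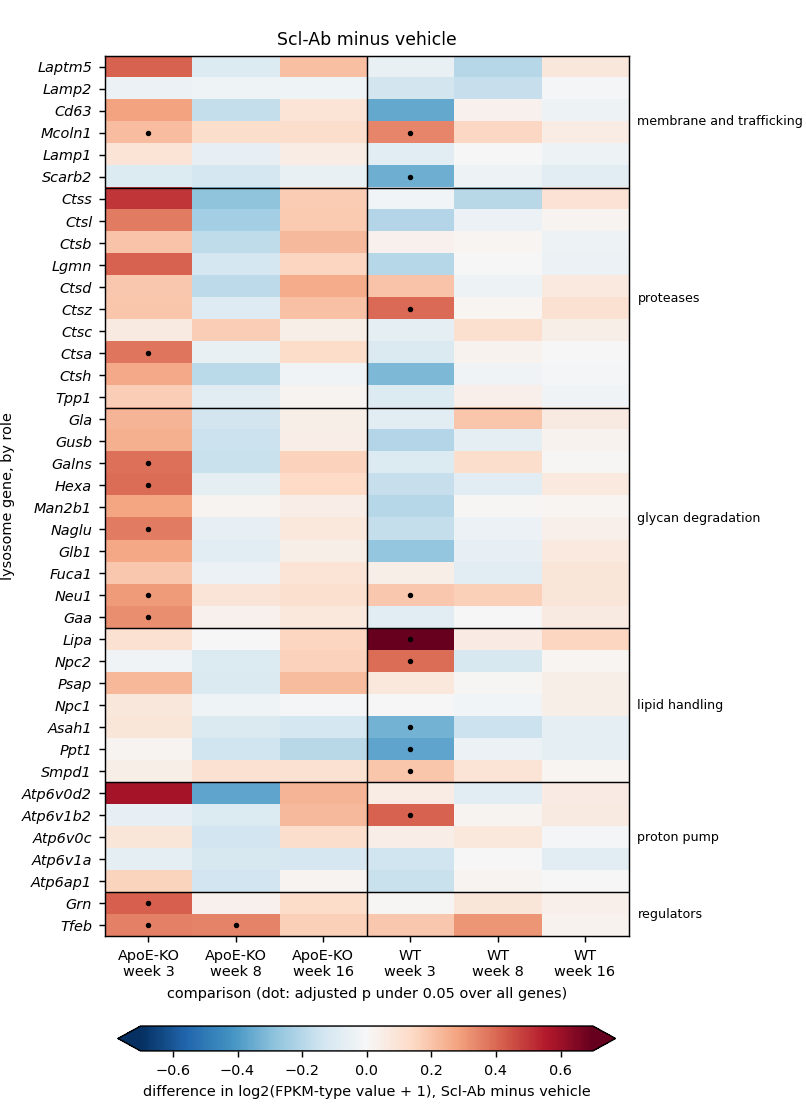
Differences in log2(value + 1) between Scl-Ab and vehicle arches (colour, which saturates at 0.7) for the 40 lysosome genes in rows, grouped by role, in ApoE-KO and WT mice at weeks 3, 8 and 16 in columns, with a dot where the adjusted p is under 0.05. Dots stand in 9 rows for ApoE-KO and in 10 for WT at week 3, in 1 (Tfeb) for ApoE-KO and 0 for WT at week 8, and in 0 at week 16 in either genotype.

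The Scl-Ab effect at week 3 differed between the genotypes for 11 of the 40 genes, higher in ApoE-KO than in WT for 10 and lower for 1, against 6.85% and 11.3% of all genes. Cd63 (0.64 ± 0.22), Lgmn (0.61 ± 0.22), Ctsh (0.58 ± 0.20), Hexa (0.55 ± 0.18) and Glb1 (0.54 ± 0.15) led the genes higher, and Lipa (-0.60 ± 0.20) was the gene lower. The adjusted p of the 11 lay between 0.00923 and 0.039 (limma). At weeks 8 and 16, 0 of the 40 and 0% of all genes were called by limma. An unadjusted p under 0.05 was found for 0 and 0 of the 40, and for 1037 and 309 of the 14637 genes tested. The week 3 count was 0 with the week fitted alone, 3 with no filter, 24 with weighted libraries, 0 with scores of fat, muscle and thymus lists in the fit, and 22 without the 3 libraries least like their group. It was 7, 7 and 20 without ApoE-KO Scl-Ab replicates 3, 8 and 9, and 2, 3, 19, 17 and 4 without ApoE-KO vehicle replicates 1, 3, 4, 5 and 8. It was 18, 2 and 2 without WT Scl-Ab replicates 1, 2 and 4, and 7, 4 and 20 without WT vehicle replicates 1, 2 and 4, each left out alone.

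Averaged over the 3 weeks, 6 lysosome genes were higher and 0 lower under Scl-Ab in ApoE-KO arches, against 6.78% and 9.37% of all genes. They were Tfeb (0.29 ± 0.06), Grn (0.19 ± 0.06), Neu1 (0.17 ± 0.04), Mcoln1 (0.15 ± 0.03), Gaa (0.14 ± 0.04) and Smpd1 (0.09 ± 0.03), and the adjusted p of Tfeb was 0.000135 (limma). In WT arches 5 were higher and 1 lower, against 6.68% and 9.26% of all genes, namely Lipa (0.30 ± 0.08), Mcoln1 (0.18 ± 0.04), Tfeb (0.17 ± 0.06), Neu1 (0.15 ± 0.04) and Smpd1 (0.10 ± 0.03) higher and Asah1 (-0.18 ± 0.06) lower. In both directions together, 6 of the 40 and 2365 of the 14637 genes tested were called in ApoE-KO arches. In WT arches, 6 of the 40 and 2333 of the 14637 were called. These are similar shares in each genotype, so the number of calls is not particular to the lysosome genes. Tfeb, Neu1, Mcoln1 and Smpd1 were called higher in both genotypes. The genotypes share no libraries but share 1 estimate of the spread per gene, and the share of all genes called in both was not counted. Clock genes moved with the treatment in the same libraries. Arntl, a core clock activator, was lower under Scl-Ab, with differences of -0.86 ± 0.14 in ApoE-KO and -0.98 ± 0.16 in WT arches, and Dbp, a clock output factor, was higher by 0.64 ± 0.17 and 0.89 ± 0.19. With 2 components of clock gene expression in the fit, 0 of the 40 were called in either genotype, and Tfeb differed by 0.13 in ApoE-KO and by -0.0027 in WT arches. The part of the clock genes in the result was not tested otherwise, and the time of day of tissue collection is not given in the sources used here. Without the 3 libraries least like their group the ApoE-KO count was 10.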

How the data were processed

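RNA was prepared from aortic arch tissue and libraries were made with a stranded mRNA kit, per the labels' protocols, with 103 libraries in 12 groups. The authors deposited 1 table per library of gene symbols with FPKM-type abundances (FPKQ), a unit not defined in the labels. GRCm38 and DESeq2 1.10.1 are named in the submitters' processing notes; the aligner, the quantification tool, the annotation and whether strand was used are not given in the sources. Such normalized values hold no read counts, so no count test was run. Each library comes from a separate animal number, so p-values measure the spread between animals.

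The 14637 genes that reached 1 in 5 or more libraries were tested on log2(value + 1) with limma 3.58.1 under R 4.3.3, using its trend and robust options, after a check on simulated data. All 12 group means stood in 1 fit, with Benjamini-Hochberg adjustment over all genes. A fold change on this scale understates the change of low genes. Differences are ApoE-KO minus WT or Scl-Ab minus vehicle. Alternatives were a pseudocount of 0.1, no filter, rescaled libraries, single-week fits, a replicate block, array weights, marker scores as covariates and leaving out each library in turn, except the WT Scl-Ab libraries of week 16. Leaving out the 3 libraries least like their group was added after seeing the data. The members, lists and tests were chosen with earlier results of these data known. All 40 members may be named. In genotype comparisons, up to 10 called members with the highest and up to 4 with the lowest log2 change are given in full. In treatment comparisons, up to 6 members by unadjusted p are given. Of other lysosome genes, up to 4 per list and partners of members are given. Names beyond that rule were chosen after their values were seen. Promoters are from RefSeq (GRCm38.p6).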

Additional observations from a re-analysis of the deposited data

Results flagged for a closer look

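In 6 of 84 group and gene combinations tested for Atp6v0d2, Ctss, Laptm5, Lipa, Ctsd, Tfeb and the lysosome mean, 1 library lay far from the others of its group (about 1 in 20 by chance). All values are log2(value + 1). ApoE-KO Scl-Ab replicate 7 of week 16 was lowest for Atp6v0d2 at 4.33, with the next library at 5.61, and lowest for Ctss at 8.37, with the next at 9.19. This is 1 of the 3 libraries least like their group. WT Scl-Ab replicate 9 of week 8 was highest for Ctss at 5.11, with the next at 4.66, and highest for Laptm5 at 4.22, with the next at 3.86. WT vehicle replicate 4 of week 8 was highest for Laptm5 at 5.11, with the next at 3.79, and its macrophage score of 4.79 was the highest among WT vehicle libraries of that week. ApoE-KO vehicle replicate 4 of week 3 was highest for Ctsd at 10.56, with the next at 9.64.

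In 3 tests of a difference between effects some lysosome genes passed. The Scl-Ab effect at week 3 differed between ApoE-KO and WT for 11 genes. The ApoE-KO minus WT difference under vehicle differed between weeks 8 and 3 for 6 genes and between weeks 16 and 3 for 16 genes, where week, age and batch cannot be told apart.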

How the results depend on the processing

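The counts of lysosome genes called in the genotype comparisons stayed within 1.5 times under every alternative run, except with the macrophage score (6, 8 and 7 called under vehicle at weeks 3, 8 and 16, and 3, 5 and 9 under Scl-Ab) and, at week 3 under vehicle, with clock components (11). The Scl-Ab count in ApoE-KO arches at week 3 was 5 with no filter, 1 with the week alone, 28 with array weights, 1 with clock components and 24 without the 3 libraries least like their group. At week 8 it was 3 with array weights and 0 with no filter, the week alone or clock components. In WT arches at week 3 it was 3 with the week alone, 16 with array weights, 2 with carry-over scores and 0 with clock components, and at week 8 it was 1 with array weights. The difference of Scl-Ab effects at week 3 was 3 with no filter, 0 with the week alone, 24 with array weights, 0 with carry-over scores and 22 without the 3 libraries. The difference between weeks 8 and 3 was 26 with array weights, 3 where the pseudocount was 0.1, 0 with carry-over scores and 19 without the 3 libraries. That between weeks 16 and 3 was 33 with array weights and 4 with the macrophage score. Averaged over 3 weeks, the count was 30 with array weights, 0 with clock components and 10 without the 3 libraries in ApoE-KO arches, and 13, 0 and, with the macrophage score, 10 in WT arches. The cause was not tested.

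Leaving out 1 library at a time gave 3 to 21 (ApoE-KO Scl-Ab effect, week 3), 0 to 1 (week 8), 4 to 13 (WT, week 3), 2 to 20 (difference of Scl-Ab effects, week 3), 0 to 15 (weeks 8 minus 3) and 8 to 24 (weeks 16 minus 3). Under vehicle the genotype counts were 16 to 23, 31 to 32 and 31 to 32. WT Scl-Ab libraries of week 16 were not left out.

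Libraries with the same replicate number were compared between groups. At least 1 correlation of their deviations lay under 0.1 in 17 of 18 pairs of groups. Replicate numbers do not run in step with animal numbers across groups, and a block by animal number was not tested. In ApoE-KO Scl-Ab and WT vehicle of week 8 all 5 correlations were 0.191 or more. The mean correlation was between -0.253 and 0.223, and a library correlated best with its own number in 48 of 278 cases (17.3%). With a replicate block the ApoE-KO Scl-Ab count at week 3 was 18, the difference of Scl-Ab effects 17 and weeks 8 minus 3 0.

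Under alternatives other than leaving out a library there were 2250 gene results. Of these, 2050 kept a call in the same direction or stayed uncalled, 145 lost the call and 38 gained it. The other 17 changed sign and were called in the main fit, the alternative or both. Sign changes of results that stayed uncalled were not counted. With clock components Scarb2 was higher in ApoE-KO Scl-Ab arches at week 16 (0.21) and Tfeb averaged -0.0027 in WT. With the macrophage score the ApoE-KO minus WT values were, under vehicle, Lgmn -0.065, Npc1 -0.041 and Lamp2 -0.15 at week 3, Lamp1 -0.041 and Lamp2 -0.20 at week 8, and Tpp1 -0.10, Lamp1 -0.15 and Ctsh -0.38 at week 16; under Scl-Ab, Npc1 -0.0072 and Lamp2 -0.12 at week 3, Fuca1 -0.30, Tpp1 -0.027 and Lamp1 -0.11 at week 8, and Tpp1 -0.066 and Lamp1 -0.060 at week 16. With no counts, depth sets no stated limit, and Atp6v0d2 in WT arches lies near 0.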
